A study of Homo sapiens with 4 samples.

Results

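The WNT family examined here comprised 41 genes of SK-N-SH cells, 19 WNT ligands, 10 Frizzled receptors, the co-receptors LRP5 and LRP6, and 10 secreted antagonists (DKK1 to DKK4, SFRP1, SFRP2, SFRP4, SFRP5, FRZB and WIF1). The members were taken by gene symbol from the 57820 genes of the deposited count table, by a rule that reads no expression value. The cells belong to an established neuroblastoma line and were transduced either with a lentivirus carrying the lncRNA RP5-998N21.4 under the EF1a promoter (OE, 2 libraries) or with the same vector without an insert (vector control, 2 libraries, below also the control libraries), so all 4 libraries come from transduced cells. The comparison asks which transcripts differ when RP5-998N21.4 is overexpressed. RP5-998N21.4 itself counted 32 and 33 in the control libraries against 2407 and 2808 in OE (log2 fold change 6.11, SE 0.11, adjusted p = 0.0109 by the edgeR quasi-likelihood test, Benjamini-Hochberg adjusted).

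WNT proteins are secreted, lipid-modified ligands that bind the cysteine-rich domain of Frizzled receptors. When LRP5 or LRP6 is drawn into the complex, the scaffold that marks beta-catenin for destruction is disabled and beta-catenin reaches TCF and LEF factors in the nucleus, while other ligand and receptor pairs act on cell polarity and movement without beta-catenin. DKK1 blocks LRP5 and LRP6, and SFRP proteins, FRZB and WIF1 bind the ligands outside the cell. The other DKK genes, DKK3 included, are counted with the antagonists by gene symbol alone. The neural crest, from which neuroblastoma arises, depends on WNT signals during its induction and migration.

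The 4 libraries held between 23785164 and 28307591 counts over 196520 transcripts, which were summed per gene. Levels are given as counts or as CPM (counts scaled to 1000000 per library), and a listing of 0 is read as a limit of 3 counts that covers counting error only. The labels do not say that the replicates came from separate cultures, so the p-values measure the spread between these libraries, and in bulk RNA a smaller share of expressing cells and less RNA per cell cannot be told apart. Of 14 adrenergic neuroblastoma markers, 13 were tested and TH was at 0 in all libraries. All 13 had both OE libraries above both vector control libraries, beside 27.8% of all genes tested, and their summed level was 787 and 853 CPM in the vector control and 1377 and 1327 CPM in OE. The 14 mesenchymal markers summed to 4267, 4183, 4653 and 3159 CPM in vector control 1 and 2 and OE 1 and 2, where 5 were higher and 7 lower without overlap, and VIM alone went through 348, 350, 1254 and 376 CPM. Markers of other cell types summed to between 0.717 and 2.04 CPM, with AIF1, ALB, AQP4 and CDH5 at 0 in every library. The part of the adrenergic shift in the WNT family values below was not tested.

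In OE, both libraries lay below both vector control libraries for 7 Frizzled receptors, both LRP co-receptors, 4 antagonists and WNT5A (14 tested members, beside 27.6% of all genes tested), and above them for the weakly expressed ligands WNT10A, WNT6, WNT4 and WNT8B (4 tested members, beside 27.8%), but no member passed the adjusted test of the edgeR fit. Of the 41 members, 32 had a count in some library, 25 had a count in all 4, and 27 passed the filter on low counts and were tested. The clearest differences were a 2.09-fold lower level of FZD4, a 1.43-fold lower level of FZD7, a 1.42-fold lower level of LRP5 and a 4.78-fold higher level of WNT10A. At an adjusted p under 0.01 with an absolute log2 fold change above 0.5, edgeR's quasi-likelihood test called 0 of the 27 members, and it called 0 of all 20528 genes tested (0%), with 2 libraries a group. DESeq2, at the same thresholds, called WNT10A as higher and FZD4, FZD7, FZD9 and LRP5 as lower. That is 1 member higher beside 4.35% of all genes, and 4 members lower beside 4.42%.

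Without adjustment, 2 members were higher at p under 0.05 in the edgeR fit (WNT10A and WNT6), beside 10.1% of all genes tested. At the same unadjusted level, 10 were lower (FZD1, FZD4, FZD6, FZD7, FZD9, LRP5, LRP6, SFRP1, DKK3 and FRZB), beside 10.7% of all genes. The median log2 fold change of the 27 was -0.15, and that of all genes tested was 0.0071. The lower count depended on each library: without vector control 1 it was 5, and without vector control 2, OE 1 or OE 2 it was 6. The same count over all genes, 2200 with every library, was 1559, 1547, 1809 and 2015 in those 4 fits. The higher count was 1 without vector control 1 or OE 1, 3 without vector control 2 and 2 without OE 2, while over all genes it went from 2069 to 1893, 1815, 1251 and 1418 without vector control 1, vector control 2, OE 1 and OE 2.

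**Figure D1:**
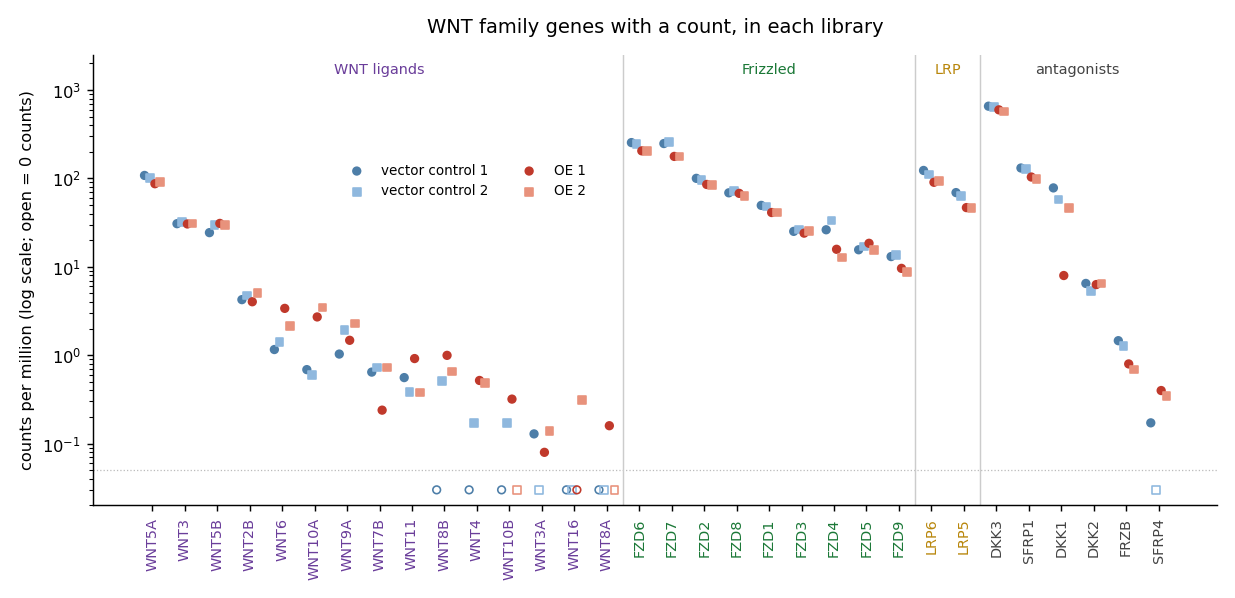
Level of each of the 32 WNT family genes with a count, in CPM on a log axis, grouped by role and ordered by mean level, with 1 point per library and open points for 0 counts. The Frizzled and LRP points of the OE libraries mostly sit below those of the vector control, WNT10A and WNT6 points sit above, and DKK1 is set apart by OE 1 at 7.97 CPM.

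**Figure D2:**
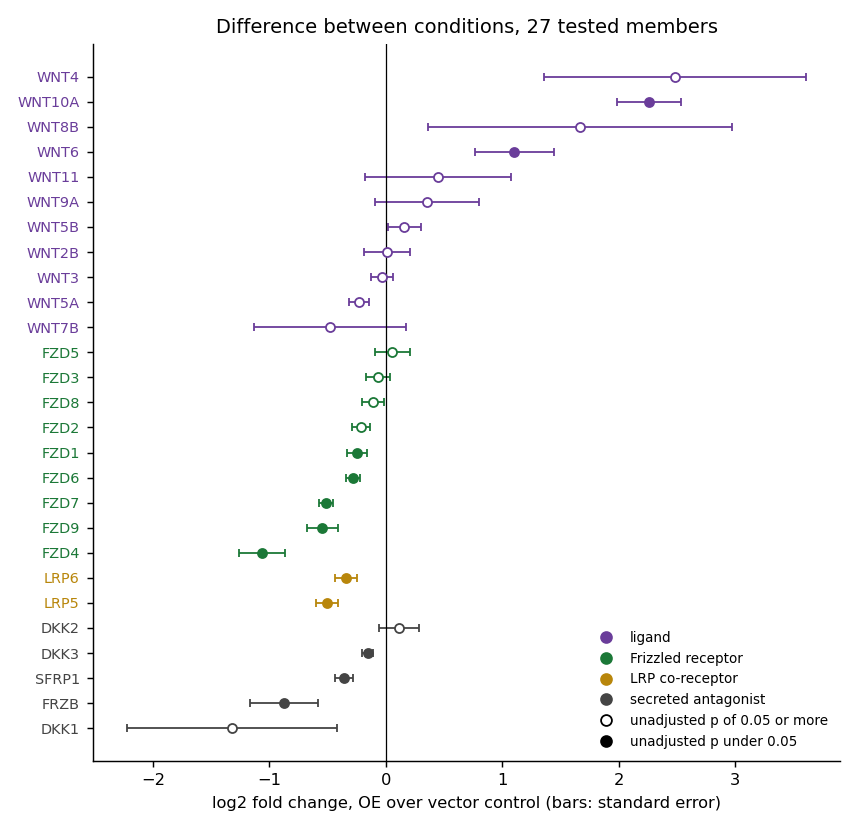
Log2 fold change of OE over vector control for the 27 tested members by role, with bars for the standard error and filled points for an unadjusted p under 0.05. Frizzled and LRP values run from -1.06 (FZD4) to 0.06 (FZD5), while ligands run from -0.48 (WNT7B) to 2.48 (WNT4, a value that rests on 4 control counts), with wide bars for the rarest ligands.

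Among the ligands, the abundant ones differed little, and WNT10A and WNT6, both rare, were higher in OE. Of 19 ligands, 11 were tested, 8 of them with a positive and 3 with a negative log2 fold change, and their median was 0.35. Their summed level, set mostly by WNT5A, WNT3 and WNT5B, was 172 and 174 CPM in the vector control and 163 and 168 CPM in OE, a ratio of 0.957 in the other direction, with the smallest exact permutation p the design allows (0.333). WNT10A, a ligand of the beta-catenin branch known for its role in skin appendages and teeth, had 16 and 14 counts in the control libraries and 68 and 100 in OE. Both OE libraries were thus well above both controls at a low absolute level, 0.687 and 0.596 CPM against 2.71 and 3.46 CPM. The log2 fold change was 2.26 (SE 0.27, adjusted p = 0.0743 by the edgeR quasi-likelihood test, Benjamini-Hochberg adjusted, and 8.33e-07 by DESeq2), and it stayed between 2.07 and 2.42 when any 1 library was left out. Its 2055-nt coding transcript carried 16, 14, 64 and 89 of these counts, and a 590-nt transcript without a defined coding sequence carried 4 and 11 counts in OE and 0 in both controls. WNT6, a ligand active in surface ectoderm and near the neural crest, counted 27 and 33 in the control libraries against 85 and 62 in OE, all on 1 transcript. The groups did not overlap, and the log2 fold change was 1.10 (SE 0.34, adjusted p = 0.204 by edgeR's quasi-likelihood test and 0.0499 by DESeq2). It lay between 0.74 and 1.40 with any 1 library left out, and the unadjusted p was under 0.05 in 1 of those 4 fits.

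WNT6 and WNT10A are neighbours on the same strand of chromosome 2, separated by 6618 bp. In hg19 WNT6 spans chr2:219724528-219738955 and WNT10A chr2:219745574-219764303, both on the plus strand. Their exons overlap no other annotated gene. The 250 bases before each start site are shown because these are the pair of adjacent members that were both higher in OE, with no motif in capitals in either. They come from RefSeq's GRCh38.p14 promoter windows, chr2:218859555-218859804 for WNT6 and chr2:218880602-218880851 for WNT10A, on the plus strand and written 5′ to 3′, and each matched hg19 exactly once.
WNT6: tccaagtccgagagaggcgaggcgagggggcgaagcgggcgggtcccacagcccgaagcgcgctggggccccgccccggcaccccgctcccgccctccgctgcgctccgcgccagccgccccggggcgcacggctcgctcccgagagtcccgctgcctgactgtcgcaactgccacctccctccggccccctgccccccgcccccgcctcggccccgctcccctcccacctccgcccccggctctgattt
WNT10A: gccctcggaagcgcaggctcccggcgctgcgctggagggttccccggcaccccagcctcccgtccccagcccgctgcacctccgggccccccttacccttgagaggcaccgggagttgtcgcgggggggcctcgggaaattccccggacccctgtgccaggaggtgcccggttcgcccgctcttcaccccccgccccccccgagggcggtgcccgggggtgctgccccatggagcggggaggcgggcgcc
Both are rich in G and C, at 79.2% for WNT6 and 77.6% for WNT10A.

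The genes around this pair were examined after the values of WNT6 and WNT10A were seen. Within 100 kb of the pair the table lists 14 genes, the pair included, of which 6 were tested and all 6 had a positive log2 fold change, 4 of them at an unadjusted p under 0.05, beside 10.1% of all genes in that direction. WNT6 and WNT10A, which prompted the look, are 2 of these 4. FEV, an ETS factor of serotonergic neurons, had 383 and 463 counts in the control libraries and 1209 and 1207 in OE (log2 fold change 1.31, SE 0.15, adjusted p = 0.0707 by edgeR's quasi-likelihood test). CDK5R2, a neuronal activator of the kinase CDK5, counted 227 and 183 in the control libraries against 496 and 717 in OE (log2 fold change 1.35, SE 0.20, adjusted p = 0.0921 by edgeR's quasi-likelihood test). The groups did not overlap for either gene. The other tested neighbours were the pseudogene KRT8P30, with 15, 18, 30 and 32 counts in vector control 1 and 2 and OE 1 and 2, and CYP27A1, a sterol hydroxylase, with 4, 30, 37 and 35. No gene of this stretch belongs to the adrenergic marker list, whose summed level was also higher in OE. Whether the genes of this stretch follow that shift was not tested.

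WNT5A, the main ligand acting without beta-catenin, had the largest ligand count, 2516 and 2390 in the vector control and 2184 and 2654 in OE. Adjusted for library size these were 108 and 102 CPM against 87.0 and 91.8 CPM, lower in both OE libraries, with a log2 fold change of -0.23 (SE 0.08, unadjusted p = 0.0567 in the edgeR fit across all genes). WNT5B, its closest relative, had 567 and 702 counts in the control libraries and 777 and 854 in OE, with overlapping groups at 24.4, 29.9, 31.0 and 29.5 CPM. WNT3, which acts through beta-catenin, counted 716 and 755 in the control libraries against 766 and 896 in OE. At 30.7 and 32.1 CPM against 30.5 and 31.0 CPM, its groups overlapped, and its log2 fold change was -0.03 (SE 0.09). The 3 most abundant ligands therefore showed no separation beyond that of WNT5A.

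The remaining ligands were scarce. WNT2B, a relative of WNT2 active in gut and eye development, had 99 and 111 counts in the control libraries and 101 and 145 in OE, shared between a 2819-nt and an 11130-nt transcript. WNT9A, a ligand of joint and skeletal development, counted 24 and 45 in the control libraries against 37 and 66 in OE. Both had overlapping groups. WNT4, known from kidney and gonad development, had 0 and 4 counts in the control libraries and 13 and 14 in OE, so its fitted log2 fold change of 2.48 (SE 1.13) rests on 4 control counts in 1 library and was 1.53 without vector control 1. Without vector control 2 the remaining control is at 0, so no fold is given. WNT8B, a ligand of the developing forebrain, counted 0 and 12 in the control libraries against 25 and 19 in OE. Its fitted log2 fold change of 1.67 was 0.68 without vector control 1, and again no fold is given against the control at 0. Both OE libraries were above both controls for these 2 genes, and neither reached an unadjusted p of 0.05. WNT11 had 13, 9, 23 and 11 counts and WNT7B 15, 17, 6 and 21 counts in vector control 1 and 2 and OE 1 and 2, with overlapping groups. WNT10B, WNT16, WNT3A and WNT8A never exceeded 9 counts in a library and were not tested. WNT1, WNT2, WNT7A and WNT9B were at 0 in all 4 libraries. WNT9B lies 46 bp from WNT3 in hg19, in the opposite orientation, while WNT3 was among the most abundant ligands.

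The Frizzled receptors were mostly at lower levels in the OE libraries. Of 10 listed, 9 were tested, 8 had a negative log2 fold change, 7 did not overlap between groups and 5 were lower at an unadjusted p under 0.05, with a median of -0.25. Over all genes tested, 27.6% did not overlap and were lower, and 10.7% were lower at that unadjusted p. Their summed level was 800.5 and 811 CPM in the vector control and 644 and 633 CPM in OE, a ratio of 0.793. An exact two-sided permutation test over the 4 libraries gave p = 0.333, the smallest p this design allows. FZD10 was at 0 in all libraries.

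FZD4, the receptor that also binds Norrin in retinal vessel growth, had the largest Frizzled difference. It had 611 and 787 counts in the control libraries and 396 and 370 in OE, or 26.2 and 33.5 CPM against 15.8 and 12.8 CPM. The OE libraries were each well below the lower control. The log2 fold change was -1.06 (SE 0.20, adjusted p = 0.113 by the edgeR quasi-likelihood test, Benjamini-Hochberg adjusted, and 2.82e-05 by DESeq2), and it ranged from -1.23 to -0.88 with any 1 library left out. In hg19 FZD4 lies at chr11:86656721-86666437 on the minus strand, and 1399 of its 7387 exonic bases (18.9%) are shared with PRSS23, a serine protease gene on the opposite strand. PRSS23 counted 10381 and 10248 in the control libraries against 4825 and 5333 in OE (log2 fold change -1.23, SE 0.06, adjusted p = 0.0298 by edgeR's quasi-likelihood test). The use of strand in the counting is not given in the sources used here, and without it reads of the shared bases cannot be assigned to either gene. The share of the FZD4 difference that these reads carry was not tested. The FZD4 promoter is shown because it belongs to the receptor with the largest difference, 250 bases at chr11:86955396-86955645 on the minus strand of GRCh38.p14 (RefSeq), 80.8% G and C and matching hg19 once.
FZD4: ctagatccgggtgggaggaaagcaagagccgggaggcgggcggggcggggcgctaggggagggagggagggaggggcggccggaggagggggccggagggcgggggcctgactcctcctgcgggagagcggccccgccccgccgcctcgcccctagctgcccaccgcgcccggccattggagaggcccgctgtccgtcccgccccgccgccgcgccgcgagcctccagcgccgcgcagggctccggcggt

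FZD7, a receptor used by neural crest and stem cells, had 5774 and 6069 counts in the control libraries and 4449 and 5139 in OE. In CPM these were 248 and 258 against 177 and 178, so replicates lay much closer to each other than the groups did. The log2 fold change was -0.51 (SE 0.06, adjusted p = 0.0738 by the edgeR quasi-likelihood test, Benjamini-Hochberg adjusted, and 3.25e-20 by DESeq2), between -0.54 and -0.49 with any 1 library left out. No other annotated exon overlaps FZD7, which lies at chr2:202898578-202903164 in hg19 on the plus strand. FZD9, a receptor expressed in the developing brain, counted 304 and 320 in the control libraries against 241 and 251 in OE (log2 fold change -0.55, SE 0.13, adjusted p = 0.152 by edgeR's quasi-likelihood test, and 0.004 by DESeq2). Both OE libraries, at 9.60 and 8.68 CPM, were below the controls at 13.1 and 13.6 CPM. FZD6, which works in planar cell polarity, had 5917 and 5772 counts in the control libraries and 5142 and 5944 in OE. The similar raw count of OE 2 came from the deepest library, and in CPM the values were 254 and 246 against 205 and 205. Its log2 fold change was -0.28 (SE 0.06, adjusted p = 0.128 by edgeR's quasi-likelihood test). FZD6 shares 138 exonic bases (3.39%) with the antisense gene RP11-318M2.2, which counted 341 and 306 in the control libraries against 189 and 202 in OE.

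The remaining Frizzled genes were lower by less or did not separate. FZD1 had 1153 and 1130 counts in the control libraries and 1032 and 1191 in OE, or 49.5 and 48.1 CPM against 41.1 and 41.2 CPM. FZD2, a receptor for WNT5A, counted 2332 and 2249 in the control libraries against 2143 and 2417 in OE, or 100.2 and 95.7 CPM against 85.4 and 83.6 CPM. Both were lower in each OE library, with log2 fold changes of -0.25 (SE 0.09) for FZD1 and -0.21 (SE 0.08) for FZD2. FZD8 had 1600 and 1706 counts in the control libraries and 1700 and 1825 in OE, and its 68.7 and 72.6 CPM against 67.7 and 63.1 CPM were separated by less than the control libraries were from each other. FZD3, which guides axon growth, counted 586 and 623 in the control libraries against 603 and 733 in OE, with overlapping groups. FZD5 had 363 and 399 counts in the control libraries and 463 and 446 in OE, also with overlapping groups and a log2 fold change of 0.06 (SE 0.15). It was the Frizzled gene with a positive value, and the sign turned when vector control 1 (-0.01) or OE 1 (-0.08) was left out.

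**Figure D3:**
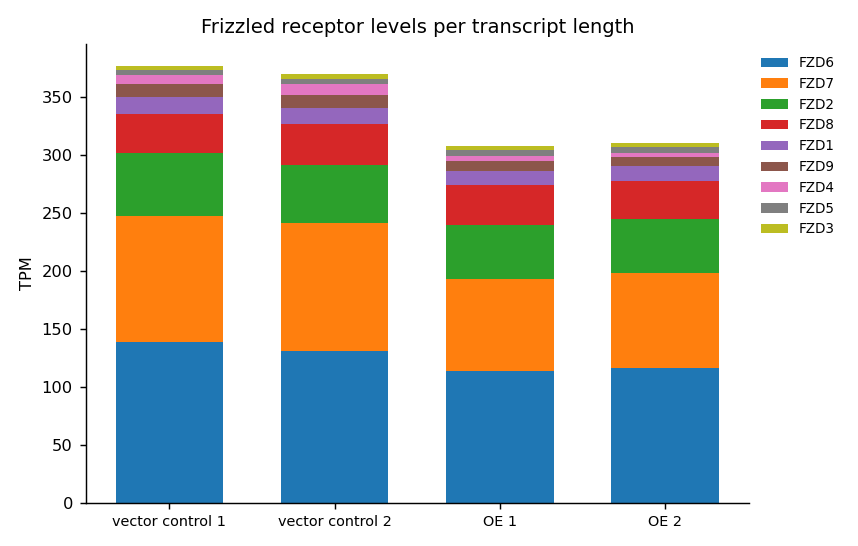
Stacked levels of the 9 detected Frizzled genes in each library, in TPM, counts divided by transcript length and scaled to a common total. The stacks of both OE libraries are shorter than those of the vector control, mostly through the FZD7 and FZD6 segments, and these genes lead in every library.

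Levels of different genes were compared per transcript length, on the TPM scale described for the stacked plot, as means over the 4 libraries. FZD6 led the receptors at a mean of 125 TPM, followed by FZD7 at 95.5, FZD2 at 49.2, FZD8 at 34.3, FZD1 at 13.3, FZD9 at 9.75, FZD4 at 6.05, FZD5 at 4.82 and FZD3 at 3.75. The order of FZD4 and FZD5 differed between the groups, FZD4 being above FZD5 in the control libraries (7.20 and 8.94 against 4.49 and 4.76 TPM) and below it in OE (4.40 and 3.66 against 5.40 and 4.63 TPM), while FZD7 lay below FZD6 in every library. FZD7 made up 29.0% and 30.0% of the Frizzled total in the vector control and 25.8% and 26.3% in OE, and FZD4 made up 1.91% and 2.42% against 1.43% and 1.18%. The share of FZD6 was 36.7% and 35.4% in the vector control and 36.9% and 37.5% in OE. Among ligands, WNT5B (36.2), WNT5A (32.8) and WNT3 (19.3) led, and the WNT5B and WNT5A ranges over libraries overlapped. In the vector control WNT5B was at 31.4 and 36.8 TPM and WNT5A at 36.2 and 33.2. In OE WNT5B, at 37.7 and 39.0 TPM, was above WNT5A at 29.7 and 32.1. WNT6 (2.42) and WNT10A (2.22) stayed far below them even in OE, where their means were 3.35 and 3.82. The antagonists DKK3 (156), DKK1 (63.8) and SFRP1 (52.5) were among the 5 highest members by this mean. DKK1 averaged 82.1 TPM in the vector control and 45.6 in OE, where SFRP1 (47.1) and FZD2 (46.6) had higher means. That order came from OE 1 alone, where DKK1 was at 30.1 TPM. In OE 2 DKK1, at 61.0 TPM, was above SFRP1 (46.4) and FZD2 (46.7). The value of DKK3 depends on a leading transcript of 9549 nt in the annotation used for lengths.

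Both LRP co-receptors, which carry the signal from Frizzled to beta-catenin, were lower in OE. LRP5, known for its role in bone mass, counted 1609 and 1482 in the control libraries against 1173 and 1344 in OE. In CPM the values were 69.1 and 63.1 against 46.7 and 46.5, without overlap. The log2 fold change was -0.50 (SE 0.10, adjusted p = 0.116 by the edgeR quasi-likelihood test, Benjamini-Hochberg adjusted, and 6.67e-06 by DESeq2), between -0.57 and -0.44 with any 1 library left out. LRP6, the other co-receptor bound by DKK1, had 2864 and 2600 counts in the control libraries and 2268 and 2709 in OE, or 123 and 110.7 CPM against 90.4 and 93.7 CPM. Its log2 fold change was -0.34 (SE 0.09, adjusted p = 0.176 by edgeR's quasi-likelihood test). The sum of both genes was 192 and 174 CPM in the vector control and 137 and 140 CPM in OE, a ratio of 0.758 with the same smallest exact permutation p of 0.333. In hg19 LRP5 lies at chr11:68080059-68216743 on the plus strand and LRP6 at chr12:12268959-12419978 on the minus strand.

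Of the 10 secreted antagonists, 5 were tested, 4 of them did not overlap between groups and were lower in OE, and 3 of these had an unadjusted p under 0.05, beside 27.6% and 10.7% of all genes. Their summed level was 873 and 838 CPM in the vector control and 715 and 725 CPM in OE, a ratio of 0.842, and DKK3 made up most of it. SFRP1, which binds WNT ligands through a Frizzled-like domain, counted 3052 and 2991 in the control libraries against 2601 and 2836 in OE. At 131 and 127 CPM against 104 and 98.0 CPM it was lower in both OE libraries, with a log2 fold change of -0.36 (SE 0.08, adjusted p = 0.133 by edgeR's quasi-likelihood test). FRZB, its relative first known from cartilage, had 34 and 30 counts in the control libraries and 20 in each OE library (log2 fold change -0.88, SE 0.29, adjusted p = 0.226 by edgeR's quasi-likelihood test). DKK3, a divergent Dickkopf protein, had 15271 and 15182 counts in the control libraries and 14964 and 16578 in OE, or 656 and 646 CPM against 596 and 573 CPM. Its log2 fold change was -0.15 (SE 0.05), among the smallest of the differences that did not overlap. DKK3 shares 5681 of its 11958 exonic bases (47.5%) with USP47 on the opposite strand, which had 1960, 2052, 1894 and 2415 counts in vector control 1 and 2 and OE 1 and 2. DKK2 counted 151 and 126 in the control libraries against 158 and 188 in OE, with overlapping groups. SFRP4 had 4 and 0 counts in the control libraries and 10 in each OE library, also without overlap, and was not tested. DKK4, SFRP2, SFRP5 and WIF1 were at 0 in all 4 libraries.

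DKK1, an LRP5 and LRP6 blocker and itself a target of beta-catenin, had the largest fold change and the largest standard error of the 5 tested antagonists. It had 1818 and 1352 counts in the control libraries, 200 in OE 1 and 1337 in OE 2. OE 1 was far below the other 3 libraries, and OE 2, at 46.2 CPM, was below the controls at 78.1 and 57.5 CPM, nearer to the lower control than the controls were to each other. The log2 fold change of -1.32 (SE 0.90, unadjusted p = 0.222 in the edgeR fit across all genes) was -0.55 without OE 1 and -3.09 without OE 2. The coding transcript ENST00000373970.3, of 1805 nt, was listed with 1772 and 1271 counts in the control libraries, 0 in OE 1 and 1263 in OE 2. The 547-nt transcript ENST00000467359.1, with no defined coding sequence, had 46, 81, 195 and 74 counts in the same order, and 304 of its 547 bases (55.6%) are also in the coding transcript. A leading transcript listed at 0 in a single library was not particular to DKK1. Of 12583 genes whose leading transcript had at least 100 counts in 3 or more libraries, 844 (6.71%) had 0 in the remaining one, 222 of them in vector control 1, 208 in vector control 2, 224 in OE 1 and 190 in OE 2. Among the 18 members that met this minimum, DKK1 was the 1 member with such a 0.

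**Figure D4:**
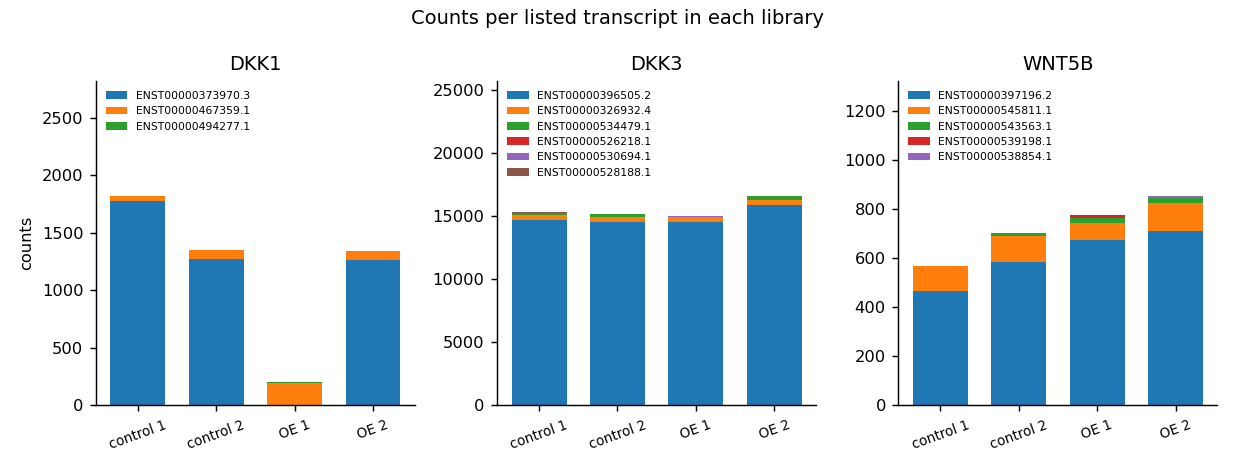
Stacked counts of each listed transcript of DKK1, DKK3 and WNT5B, the members with counts on several transcripts used as examples, in the 4 libraries. The coding DKK1 transcript fills most of the bar in 3 libraries and is at 0 in OE 1, where the 547-nt transcript has 195 counts, while DKK3 and WNT5B keep the same leading transcript in each library.

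The remaining members were mostly free of such splits. All counts lay on 1 transcript for 23 of the 32 members with a count. DKK3 kept its leading transcript in all libraries, and a minor one, ENST00000534479.1, was listed with 200, 253, 0 and 298 counts in vector control 1 and 2 and OE 1 and 2. The motifs CTTTGAT and CTTTGAA, the core letters bound by TCF and LEF factors, were searched on both strands in RefSeq's promoter windows of 300 bases, which run from 250 bases before each start to 50 after it. They occurred in 2409 of 35116 windows (6.86%), and in 1 of 20 windows that matched 17 tested members. That window was the DKK1 promoter, whose 250 bases before the start are printed for this reason with the match in capitals, at chr10:52314031-52314280 on the plus strand of GRCh38.p14, 62.8% G and C and matching hg19 once.
DKK1: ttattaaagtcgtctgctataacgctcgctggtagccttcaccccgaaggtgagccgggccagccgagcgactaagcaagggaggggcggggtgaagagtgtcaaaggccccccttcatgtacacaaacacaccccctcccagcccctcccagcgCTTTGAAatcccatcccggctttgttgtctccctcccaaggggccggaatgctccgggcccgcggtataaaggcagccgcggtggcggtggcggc
A match of letters is a description and does not show binding.

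The other genes of the pathway were evenly split by direction. Of 78 listed genes, 70 were tested, 35 with a positive and 35 with a negative log2 fold change, and their median was -0.0016. At an unadjusted p under 0.05, 8 were higher and 12 lower, and edgeR's quasi-likelihood test called 0 after adjustment. DESeq2 called 3 higher and 7 lower. The shares over all genes tested were 10.1% higher and 10.7% lower at the unadjusted p, and 4.35% and 4.42% called by DESeq2. The number higher was 11, 10, 3 and 4 without vector control 1, vector control 2, OE 1 and OE 2, and the count over all genes was also lowest without OE 1 or OE 2.

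Of the 12 genes named here, 9 were lower and 3 higher in OE. AXIN2, a scaffold of the destruction complex and a direct beta-catenin target, had 803 and 819 counts in the control libraries and 521 and 688 in OE (log2 fold change -0.64, SE 0.12, adjusted p = 0.111 by edgeR's quasi-likelihood test). CTNNB1, which encodes beta-catenin, counted 3093 and 2934 in the control libraries against 2526 and 2798 in OE (log2 fold change -0.38, SE 0.08). CCND1, the cell cycle gene for cyclin D1, had 26145 and 27186 counts in the control libraries and 20730 and 24957 in OE (log2 fold change -0.43, SE 0.05). Each was below the controls in both OE libraries. CD44, the hyaluronan receptor and a listed target gene, counted 14266 and 13264 in the control libraries against 8894 and 10559 in OE (log2 fold change -0.71, SE 0.06, adjusted p = 0.0615 by edgeR's quasi-likelihood test). CD44 is also on the mesenchymal marker list, of whose 14 tested genes 4 were lower and 2 higher at an unadjusted p under 0.05. Apart from DKK1, a member counted above, the 14 tested target genes divided into 7 with positive and 7 with negative values (median -0.03). By sign, the lower genes named here thus do not stand for that list. At an unadjusted p under 0.05, 3 were lower and 1 higher, beside 10.7% and 10.1% of all genes tested. The summed level of the list was 2400 and 2403 CPM in the vector control and 1947 and 1858 CPM in OE.

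Receptor partners and modulators also included lower genes. RECK, a membrane protein that presents WNT7 ligands to Frizzled, had 2495 and 2347 counts in the control libraries and 1516 and 1607 in OE (log2 fold change -0.84, SE 0.10, adjusted p = 0.0707 by edgeR's quasi-likelihood test). KREMEN1, the receptor through which DKK1 removes LRP6 from the surface, counted 2389 and 2432 in the control libraries against 1740 and 2155 in OE (log2 fold change -0.52, SE 0.08). LGR4, a receptor for R-spondins, which keep Frizzled receptors at the surface, had 556 and 672 counts in the control libraries and 412 and 465 in OE (log2 fold change -0.69, SE 0.14). RSPO3, an R-spondin, was likewise below the controls, with 311 and 241 counts against 188 and 180 (log2 fold change -0.78, SE 0.21). Their own list was mixed, with 2 of 5 tested genes higher and 2 lower at an unadjusted p under 0.05 and a median of 0.27. The list of receptor partners had 9 of 12 tested genes with a negative log2 fold change and a median of -0.45, with 3 at an unadjusted p under 0.05 in that direction and 1 in the other.

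The 3 named genes that were higher act in the nucleus, the destruction complex and the polarity branch. TLE3, a Groucho corepressor of TCF and LEF factors, counted 766 and 828 in the control libraries against 1364 and 1648 in OE (log2 fold change 0.71, SE 0.10, adjusted p = 0.0797 by edgeR's quasi-likelihood test). APC2, the neuronal relative of APC in the destruction complex, had 1609 and 1797 counts in the control libraries and 2856 and 3078 in OE (log2 fold change 0.60, SE 0.10). In the polarity branch, PRICKLE1 counted 144 and 129 in the control libraries against 239 and 266 in OE, whereas VANGL1 had 1925 and 1859 counts in the control libraries and 1604 and 1855 in OE. Their log2 fold changes were 0.68 (SE 0.15) and -0.34 (SE 0.08), so core polarity genes differed in direction. PRICKLE2, under the 5 CPM set for naming, had 77 and 117 counts in the control libraries and 25 and 36 in OE. Its log2 fold change was -1.88 (SE 0.32), opposite to that of PRICKLE1. Of 12 tested polarity genes, 2 were higher and 2 lower at an unadjusted p under 0.05, beside 10.1% and 10.7% of all genes. The nuclear factors and the polarity list had medians of 0.0057 and 0.02, close to that of all genes. The 3 WNT secretion genes had no group separation.

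**Figure D5:**
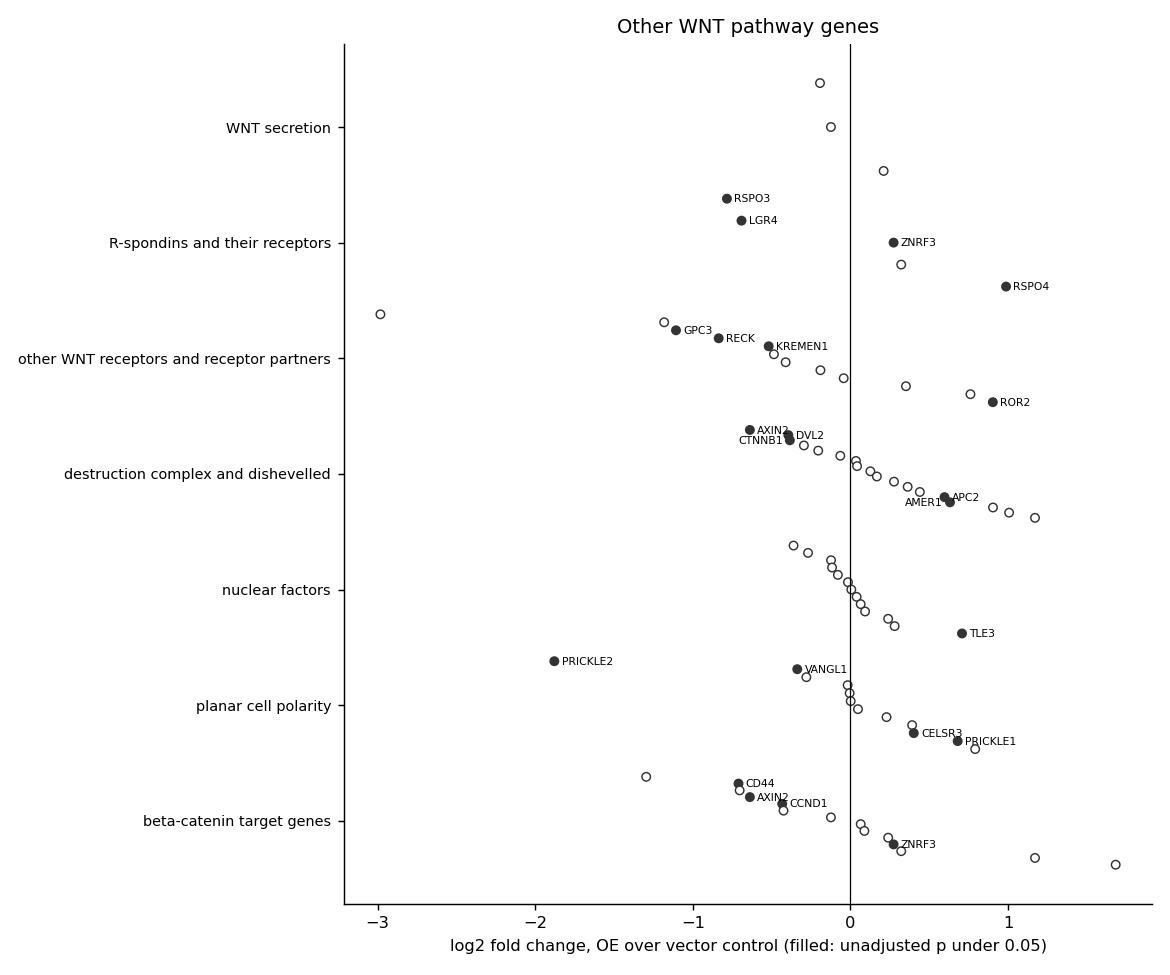
Log2 fold change of OE over vector control for the tested WNT pathway genes outside the family, by list, with filled and named points for an unadjusted p under 0.05 (AXIN2 and ZNRF3 stand in both of their lists). Points lie on both sides of 0 in each list, with 8 filled genes higher and 12 lower.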

How the data were processed

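The 4 RNA-seq libraries were grouped by the treatment label (2 empty lentivirus vector, 2 RP5-998N21.4), although the control titles read WT. After quality control (FastQC), trimming (Trimmomatic) and mapping to hg19, the authors deposited raw counts for each transcript. The submitters' processing notes name Bowtie2 2.0.4, Picard 2.21.6, StringTie 2.1.6 and DESeq2. The counting step, annotation release and use of strand are not given in the sources used here.

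Counts were summed per gene. In edgeR 4.0.16 (R 4.3.3), filterByExpr left 20528 genes, TMM factors set the library sizes, and a quasi-likelihood model without covariates gave p-values, Benjamini-Hochberg adjusted over all genes. The call (adjusted p under 0.01, absolute log2 fold change above 0.5) follows the study's thresholds. The study used DESeq2, which was run here (1.42.0) as an alternative, beside limma-voom (limma 3.58.1), other normalizations and count filters, a replicate block, the leading transcript alone and leaving out each library. The fits were also run on simulated counts with a smaller spread between replicates than these libraries have. That check therefore does not give the power of the fits here.

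Lengths and hg19 positions came from GENCODE 44 lifted to GRCh37, which gave a length for transcripts holding 93.51% of counts and for all 51 member transcripts with a count, 9 of them in the same version. RefSeq promoter windows matched 28 of 41 members. Protein sequences were not used here.

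The rule for the members reads gene symbols alone, but this family and the lists were chosen with earlier results of these data known. Members with a mean of at least 1 CPM or an unadjusted p under 0.05 are given with the count in every library. Other pathway genes are named at an unadjusted p under 0.05, a mean of at least 5 CPM and groups that do not overlap, at most 12 by smallest p.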

Additional observations from a re-analysis of the deposited data

How the results depend on the processing

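Under 12 alternatives, the log2 fold changes of the 27 tested members gave 322 values, of which 270 kept direction and side of the unadjusted threshold, 33 lost the threshold, 9 gained it and 10 turned sign in 7 members. With every library kept, the number of members called was 0 in all edgeR and limma-voom settings, an adjusted p under 0.05 included. It was 5 with DESeq2, which called 1800 of all genes. The smallest adjusted p of any gene in the main edgeR fit was 0.0109, so no gene could be called at 0.01. A count of 0 at that threshold is therefore not particular to the members. The number higher was 1 with limma-voom and 1 to 3 with a library left out, and the number lower was 5 to 6 with a library left out. The median of the members was -0.043 with a minimum of 1 count in total, which tests 32 members. The number of other pathway genes higher was 5 with the transcript of highest mean count and 3 to 11 with a library left out. Upper-quartile normalization moved the median of all genes to 0.046 and WNT3 to 0.0075, and the transcript of highest mean count moved WNT2B to -0.0081. With a library left out, WNT11 ran from -0.30 to 0.95, WNT2B from -0.16 to 0.16, WNT9A from -0.028 to 0.86, DKK2 from -0.024 to 0.25, FZD5 from -0.079 to 0.18 and WNT7B from -1.50 to 0.086. The cause was not tested.

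The deviations of same-numbered libraries had a correlation of -0.0216 over 20528 genes. This value cannot show whether same-numbered libraries were prepared together, which the labels do not give. With the replicate number as a block, 1 member was higher, 6 were lower, 0 were called, and 5 other pathway genes were higher, while over all genes 1482 were higher and 1578 lower against 2069 and 2200 without the block.

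With 2 libraries a group, counting error limits the ligands with few counts, and antisense partners of FZD4, FZD6, DKK1, DKK3 and WNT2B cannot be separated from them without strand.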
